A study of Saccharomyces cerevisiae with 5 samples.

Results

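The aryl-alcohol dehydrogenase (AAD) family of Saccharomyces cerevisiae is described here by 4 of its genes, AAD3, AAD4, AAD10 and AAD14, out of 5656 genes that had a single-gene probe set. The genes were chosen by family name with the signals of this comparison already known, so the differences between the strains are given as a description, with no test. AAD10 and AAD14 each had 1 probe set of their own. AAD4 had 2 listed for it alone, but the brighter carries the platform's mark for probes shared between transcripts. That brighter probe set stands for AAD4 in the comparison across genes, so the AAD4 values there may include other transcripts. Which transcripts it reads was not checked. AAD3 was read only by a probe set listed for both AAD3 and AAD15, so 3 of the 4 genes had a single-gene probe set, and 5 probe sets are described in all. Transcript levels were measured on Affymetrix yeast arrays, 1 array for each culture. The wild type was BY4741, a haploid laboratory strain that lacks HIS3, LEU2, MET17 and URA3 (3 biological replicates), and the mutant was a Δrsf2 strain, labelled as isogenic, which also lacks RSF2 (YJR127C, ZMS1), a gene for a zinc-finger protein (2 biological replicates). Both grew in 50 ml of rich medium with glycerol, a respiratory carbon source, to an A600 of 0.6. Whether the mutant replicates came from 1 transformant was not given in the sources used here.

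Aryl-alcohol dehydrogenases belong to the aldo-keto reductases, which use NADPH to reduce aldehydes to alcohols. The yeast genes were named for their likeness to an enzyme of the lignin-degrading fungus Phanerochaete chrysosporium, and the natural substrates of the yeast proteins are not well settled. The family members resemble each other closely in sequence and lie near chromosome ends. AAD4 and AAD6 are known to be induced by thiol oxidants through the transcription factor Yap1. Because of the close sequence likeness, a signal on this array may include transcripts of a related member, and this holds most for probe sets marked as shared.

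Signals are in arbitrary units after each array was rescaled to a 2% trimmed mean of 500. RSF2 read 204, 254 and 416 in wild-type replicates 1 to 3, and it read 9.49 and 3.30 in Δrsf2 replicates 1 and 2. Both mutant values lay under the floor of 28.1 set for low signals, so RSF2 was at least 9.90-fold below the wild type there. The arrays did not form 1 technical set. Δrsf2 replicate 1 had been deposited at a trimmed mean of 100.1 and the others at 500.3 to 500.7, and the CreX spike-in control read 56025 on the array of wild-type replicate 1 and 59709 on that of Δrsf2 replicate 1, against 2715 to 9393 on the other 3 arrays. These are called the high and the low spike-in set below. For ACT1, the signal near the 3' end over that near the 5' end, a measure of RNA integrity, was 4.91 in Δrsf2 replicate 1 and 1.55 to 2.76 in the other 4 arrays. Of the genes deleted in the parent strain, URA3 lay under the floor in all 5 arrays. MET17 was 62.4 in Δrsf2 replicate 1 and under the floor in the other 4 arrays. LEU2, read by a plain probe set, was 146 in Δrsf2 replicate 1 and at most 23.0 in the other 4 arrays, and its other probe sets were also highest in that array, at 66.4 and 207. HIS3, by its brighter probe set, was 110 in that array and 310 to 682 in the others, well above the floor, so this marker does not show its deletion, which removes part of the gene. Whether the 2 mutant cultures share one strain background cannot be told from these signals, and this bears on every mutant mean below. The number of arrays limits the precision of each value.

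The AAD genes did not move as one group in Δrsf2 replicate 2, while in replicate 1 all 5 probe sets lay above their wild-type means. AAD10 was higher in both Δrsf2 arrays than in every wild-type array, 2.70-fold by geometric mean. The AAD3 and AAD15 probe set was 2.03-fold higher, also without overlap, at low signals. AAD14 was 1.33-fold higher without overlap. AAD4, by its probe set marked as shared and by its other one, was above the wild type in Δrsf2 replicate 1 and below it in replicate 2. The signals come from whole cultures, so a change in the share of cells that make a transcript and a change in the level per cell cannot be told apart.

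AAD10 (YJR155W, on the right arm of chromosome X) read 515, 463 and 854 in wild-type replicates 1 to 3, and 1079.6 and 2344 in Δrsf2 replicates 1 and 2. The lowest mutant array lay above the highest wild-type array, and the mutant arrays differed from each other by 2.17-fold. The wild-type arrays averaged 611 ± 212 (SD, n = 3) and the Δrsf2 arrays 1712 ± 894 (SD, n = 2). The log2 difference was 1.44 ± 0.50 (SE). Of the 3 genes with a single-gene probe set, 1, AAD10, was at least 2-fold higher without overlap. Over all 4242 genes that passed the filter on low signals, 1.77% were at least 2-fold higher without overlap and 2.73% at least 2-fold lower.

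AAD14 (YNL331C, on the left arm of chromosome XIV) read 535, 707 and 829 on the wild-type arrays, and 912 and 891 on the Δrsf2 arrays. The mutant arrays were nearly equal and lay just above the highest wild-type array. The means were 690.1 ± 148 (SD, n = 3) and 901 ± 14.8 (SD, n = 2), and the log2 difference was 0.41 ± 0.44 (SE), smaller than its error. Without regard to size, 6.74% of the 4242 genes were higher in both mutant arrays than in each wild-type array and 8.25% were lower in both, and AAD10 and AAD14 were 2 of the higher ones.

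AAD4 (YDL243C, on the left arm of chromosome IV) was read by a pair of probe sets. Its bright probe set, which carries the platform's mark for probes shared between transcripts, read 1089, 1397 and 1440.9 on the wild-type arrays, and 2214 and 683 on the Δrsf2 arrays. The mutant arrays lay on opposite sides of the wild type, 3.24-fold apart, while the wild-type arrays spanned 0.40 on the log2 scale. Its means were 1309 ± 192 (SD, n = 3) and 1448 ± 1082 (SD, n = 2), and the log2 difference was -0.08 ± 0.53 (SE).

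The second AAD4 probe set is plain, with no mark of sharing. It read 77.6, 145 and 114 on the wild-type arrays, and 247 and 62.0 on the Δrsf2 arrays, so that the mutant arrays again lay on opposite sides of all 3 wild-type arrays, 3.99-fold apart. Its log2 difference was 0.19. Both AAD4 probe sets thus had the same order of the mutant arrays relative to the wild type, and the root mean square distance between their centred log2 profiles over the 5 arrays was 0.24, less than between any other pair of the 5 AAD probe sets (0.31 to 1.23).

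The probe set listed for AAD3 (YCR107W, on the right arm of chromosome III) and AAD15 read 36.0, 40.3 and 70.7 on the wild-type arrays, and 80.9 and 112 on the Δrsf2 arrays. The groups did not overlap, and every array was above the floor. The means were 49.0 ± 18.9 (SD, n = 3) and 96.3 ± 21.8 (SD, n = 2), and the log2 difference was 1.02. The signal cannot be assigned to either gene. As a probe set of several genes it did not enter the comparison across genes, and its mean was below the signal filter of 129. The difference was 0.49 with quantile normalisation and 0.44 with a floor at the 20th percentile, and it was 1.02 with no floor.

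**Figure D1:**
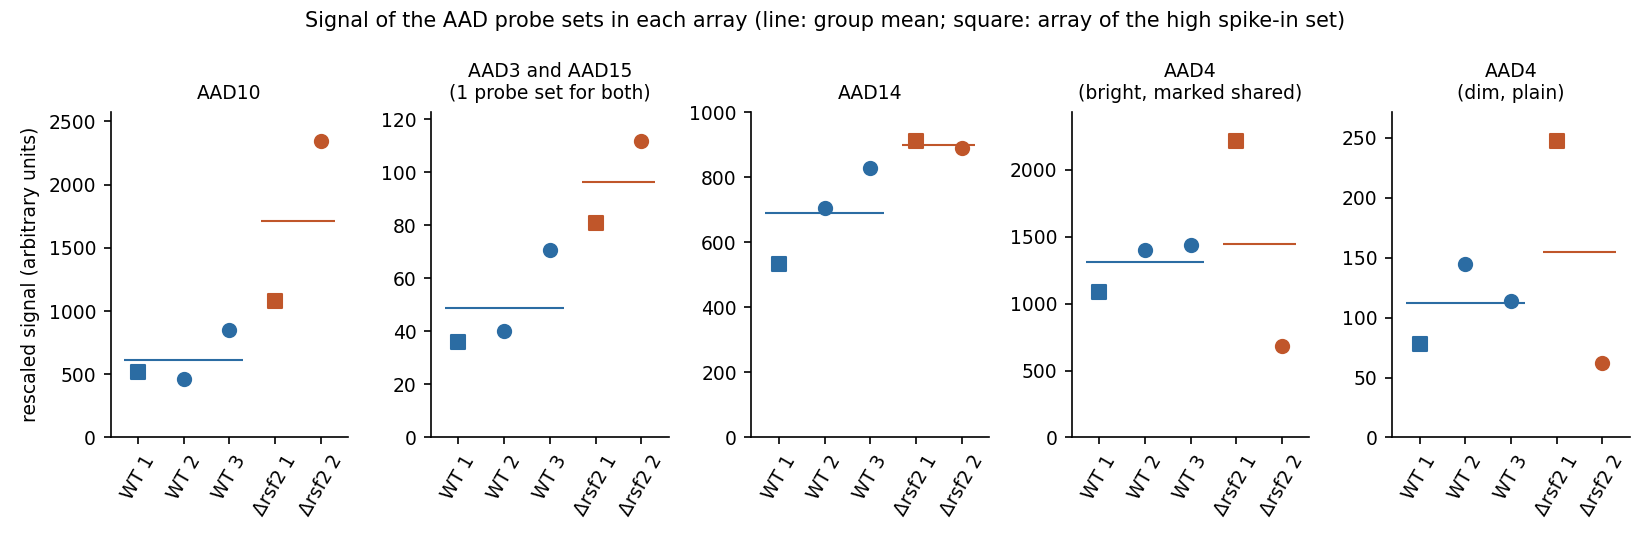
Rescaled signal (arbitrary units, linear axes from 0, a scale for each panel) of the 5 AAD probe sets in the 3 wild-type (WT, blue) and 2 Δrsf2 (orange) arrays, with lines for group means and squares for the 2 arrays of the high spike-in set. AAD10, AAD14 and the AAD3 and AAD15 probe set were higher in both mutant arrays, and both AAD4 probe sets were high in Δrsf2 replicate 1 and low in replicate 2.

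Each spike-in set holds 1 mutant array, so the differences between the mutant arrays recur between the sets. Within the high set, Δrsf2 replicate 1 against wild-type replicate 1, the log2 difference was 1.02 for the bright AAD4 probe set and 1.67 for the dim one. Within the low set, Δrsf2 replicate 2 against wild-type replicates 2 and 3, both were at -1.05. AAD10 was at 1.07 in the high set and 1.90 in the low set, the AAD3 and AAD15 probe set at 1.17 and 1.07, and AAD14 at 0.77 and 0.22. These directions follow from the array values above, since the groups do not overlap for AAD10, AAD14 and the AAD3 and AAD15 probe set and the mutant arrays lie on opposite sides of the wild type for AAD4, so the sets add sizes only. Among the wild-type arrays, the one in the high set was the lowest for both AAD4 probe sets, for AAD14 and for the AAD3 and AAD15 probe set. Its median signal over single-gene probe sets, 179, was also the lowest of the 5 arrays. The mutant array in the high set was the higher of the pair for both AAD4 probe sets. The high set compares 1 array with 1 array, so these differences have no replicate check. The median of all genes was 0.21 in the high set and -0.11 in the low set. Of the 4242 genes, 1.04% were at least 2-fold higher within both sets, as AAD10 was, and 3.18% were at least 2-fold higher within the high and at least 2-fold lower within the low set, as AAD4 was. The ACT1 ratio and the parental markers differ between the same 2 mutant arrays, and their part in the AAD4 split was not tested.

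**Figure D2:**
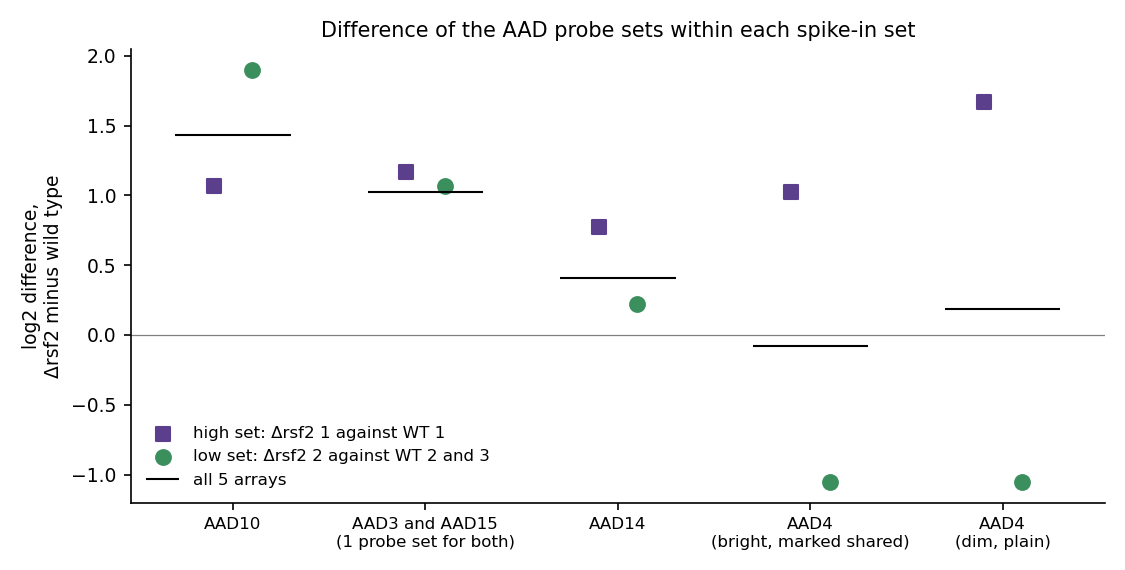
Log2 difference between Δrsf2 and wild type for each AAD probe set within the high spike-in set (squares), within the low set (circles) and over all 5 arrays (lines). AAD4 was at 1.02 and 1.67 in the high set and at -1.05 for both probe sets in the low set, while AAD10 stayed above 1 in both.

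The spread among replicates can be set beside that of other genes. The 2 mutant arrays differed by 1.70 on the log2 scale for AAD4 (bright probe set), by 1.12 for AAD10 and by 0.03 for AAD14, and the median over all genes was 0.79. A difference at least as large as that of AAD4 was found in 16.2% of genes, and one at least as large as that of AAD10 in 34.8%. In the wild type the range over the 3 arrays was 0.40 for AAD4, 0.63 for AAD14 and 0.88 for AAD10, and the median over all genes was 0.91. AAD4 thus varied less than most genes among the wild-type arrays, with 86.5% of genes at a range at least as wide, and more than most between the mutant arrays.

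Ratios between AAD probe sets within 1 array do not change when the array is multiplied by a single factor. Quantile normalisation is not such a factor, and under it the log2 difference between the strains was 1.46 for AAD10 and 0.49 for the AAD3 and AAD15 probe set. The log2 ratio of AAD10 to AAD4 (bright) was -1.08, -1.59 and -0.75 in the wild type, -1.04 in Δrsf2 replicate 1 and 1.78 in Δrsf2 replicate 2. Replicate 1 of the mutant therefore lay inside the wild-type range, and only replicate 2 stood apart. The log2 ratio of AAD10 to AAD14 was -0.05, -0.61 and 0.04 on the wild-type arrays, and 0.24 and 1.40 on the Δrsf2 arrays, both above the wild type. That of AAD10 to the AAD3 and AAD15 probe set was 3.52 to 3.84 in the wild type, 3.74 in Δrsf2 replicate 1 and 4.39 in replicate 2. The log2 ratio of the AAD4 probe sets, bright to dim, was 3.27 to 3.81 in the wild type, 3.16 in Δrsf2 replicate 1 and 3.46 in replicate 2. Against their wild-type means, the 5 probe sets lay from 0.43 to 1.19 higher on the log2 scale in Δrsf2 replicate 1 and ranged from -0.93 to 1.99 in replicate 2.

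**Figure D3:**
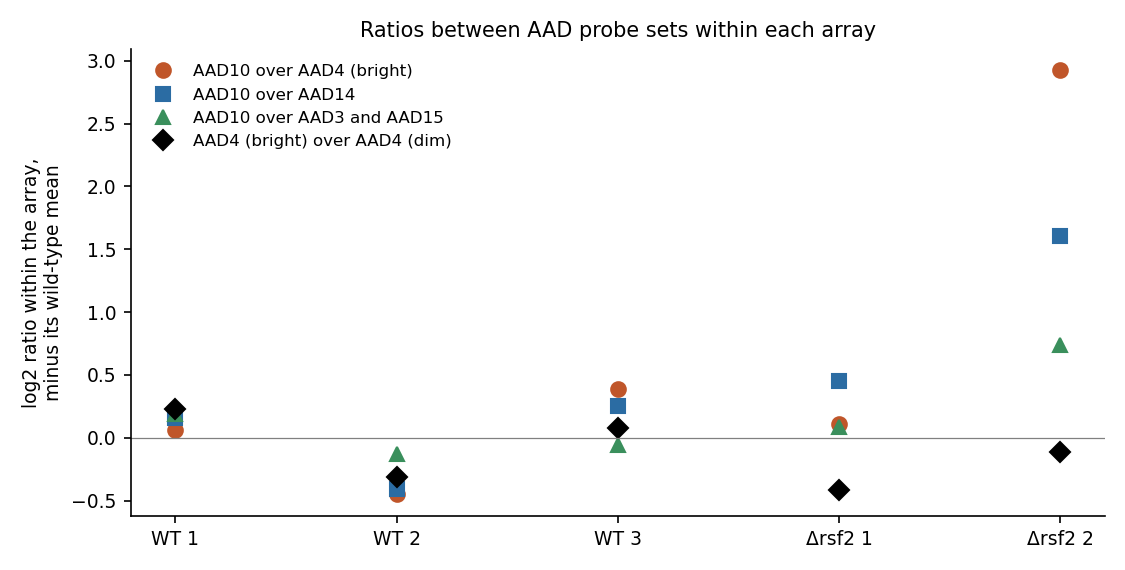
Log2 ratio between pairs of AAD probe sets within each array, minus the mean of that ratio over the 3 wild-type arrays (WT). The ratio of AAD10 to AAD4 was within the wild-type range in Δrsf2 replicate 1 and far above it in replicate 2. The ratio of the 2 AAD4 probe sets was just below the wild-type range in replicate 1 and within it in replicate 2.

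The rest of the family was measured only in part. AAD6 (YFL056C), which the gene table lists as a pseudogene, read 30.3, 20.4 and 27.5 on the wild-type arrays, and 15.5 and 17.1 on the Δrsf2 arrays. These lay at or under the floor in 4 of 5 arrays, so no fold is given. YPL088W, a putative aryl-alcohol dehydrogenase, averaged 227 ± 153 (SD, n = 3) on the wild-type arrays and 246 ± 83.5 (SD, n = 2) on the Δrsf2 arrays, with overlapping groups and a log2 difference of 0.27 ± 0.66 (SE) that was -0.08 without Δrsf2 replicate 2 and -0.06 without wild-type replicate 1. AAD15 was read only with AAD3, and AAD16 was not analysed here.

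Genes of related enzymes and pathways were taken from lists and read from the limma fit over all 4242 genes. By value, 2025 of the 4242 were higher and 2217 lower. No gene passed in that fit: 0% of genes had a limma adjusted p under 0.05, the smallest adjusted p was 0.177 and 137 genes had an unadjusted p under 0.05. None of the list genes passed either, so the values below are differences by size. Limma's adjusted p was 1.00 for each of them.

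Of the 7 other aldo-keto reductases, enzymes of the same superfamily as the AAD proteins, all were tested, and 5 were higher and 2 lower by value. Their median log2 difference was 0.37, against -0.03 for all genes. YPR127W, a pyridoxal reductase, was at 0.87 ± 0.54 (SE) and YJR096W, a putative xylose and arabinose reductase, at 0.70 ± 0.47 (SE). GRE3, an aldose reductase, was at 0.40 ± 0.53 (SE). YJR096W read 1558, 1637 and 1719 on the wild-type arrays, and 1858 and 3805 on the Δrsf2 arrays, without overlap. YDL124W, named after its values were seen, was lower without overlap, at 1458, 1732 and 1426 on the wild-type arrays and 1390.2 and 1339 on the Δrsf2 arrays. Without Δrsf2 replicate 2 the difference was 0.23 for YPR127W, 0.18 for YJR096W and -0.43 for GRE3. The median of this list was -0.14 without Δrsf2 replicate 2 and 1.22 without replicate 1, so its direction rested on Δrsf2 replicate 2.

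Short-chain reductases act on similar aldehydes and ketones with another protein fold, and 2 of 4 passed the signal filter. GRE2, an NADPH-dependent methylglyoxal reductase, read 1322, 649 and 798 on the wild-type arrays, and 1371 and 3115 on the Δrsf2 arrays. Its groups did not overlap, but the lower mutant array was only just above wild-type replicate 1, and the log2 difference of 1.23 ± 0.51 (SE) was 0.05 within the high and 2.11 within the low spike-in set. YGL039W, a putative aldehyde reductase, was at -0.31 ± 0.61 (SE), and at 0.28 without Δrsf2 replicate 2.

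The Ehrlich pathway turns amino acids into fusel alcohols, among them aromatic ones, by way of aldehydes. Of its 14 genes 12 were tested, and 7 were higher and 5 lower by value, with a median of 0.08. ADH6, an NADPH-dependent alcohol dehydrogenase that reduces cinnamaldehyde and other aldehydes, read 510.5, 710.0 and 548 on the wild-type arrays, and 271 and 125 on the Δrsf2 arrays. The groups did not overlap, and the signal was 3.17-fold lower in the mutant by geometric mean, with a log2 difference of -1.66 ± 0.57 (SE). It was lower within the high set (-0.92) and within the low set (-2.32). ADH7, its close paralog and a neighbour of AAD3 on the chromosome, was at 0.46 ± 0.55 (SE), higher without overlap. PDC6, a minor pyruvate decarboxylase, was at 1.68 ± 1.06 (SE) with wild-type signals from 23.9 to 758, and PDC1, the main one, was at 1.06 ± 0.82 (SE). The groups overlapped for both. PDC6 was at 0.39 without wild-type replicate 2. PDC1 was at -0.06 without Δrsf2 replicate 1 and at 2.18 without Δrsf2 replicate 2, so its direction rested on Δrsf2 replicate 1.

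Of 13 genes for Yap1, the oxidant-sensing activator, and its targets, all were tested, and 9 were higher and 4 lower by value, with a median of 0.08. The medians of this list and of the Ehrlich list were near that of all genes and changed sign when 1 mutant array was left out, the first to -0.06 without Δrsf2 replicate 2 and the other to -0.03 without replicate 1. YAP1 itself was at 0.08 ± 0.73 (SE), with Δrsf2 replicate 1 at -0.89 and replicate 2 at 1.05 against the wild-type mean. TRR1, thioredoxin reductase, was at -0.88 ± 0.42 (SE), CCP1, mitochondrial cytochrome c peroxidase, at -0.96 ± 0.50 (SE), and OYE3, an NADPH dehydrogenase, at -0.76 ± 0.62 (SE). TRR1 and CCP1 were lower in both mutant arrays than in each wild-type array. CCP1 was at -0.27 without Δrsf2 replicate 1 and at -1.64 without replicate 2, and OYE3 was at -1.32 and -0.20, so each size was carried mostly by 1 mutant array. GSH1, the first enzyme of glutathione synthesis, and YCF1, a vacuolar glutathione-conjugate pump, both named after their values were seen, were higher without overlap, at 0.70 ± 0.61 (SE) and 0.49 ± 0.52 (SE). For GSH1 the lower mutant array, at 257, was only just above wild-type replicate 3, at 255, and wild-type replicate 1 read 97.8.

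**Figure D4:**
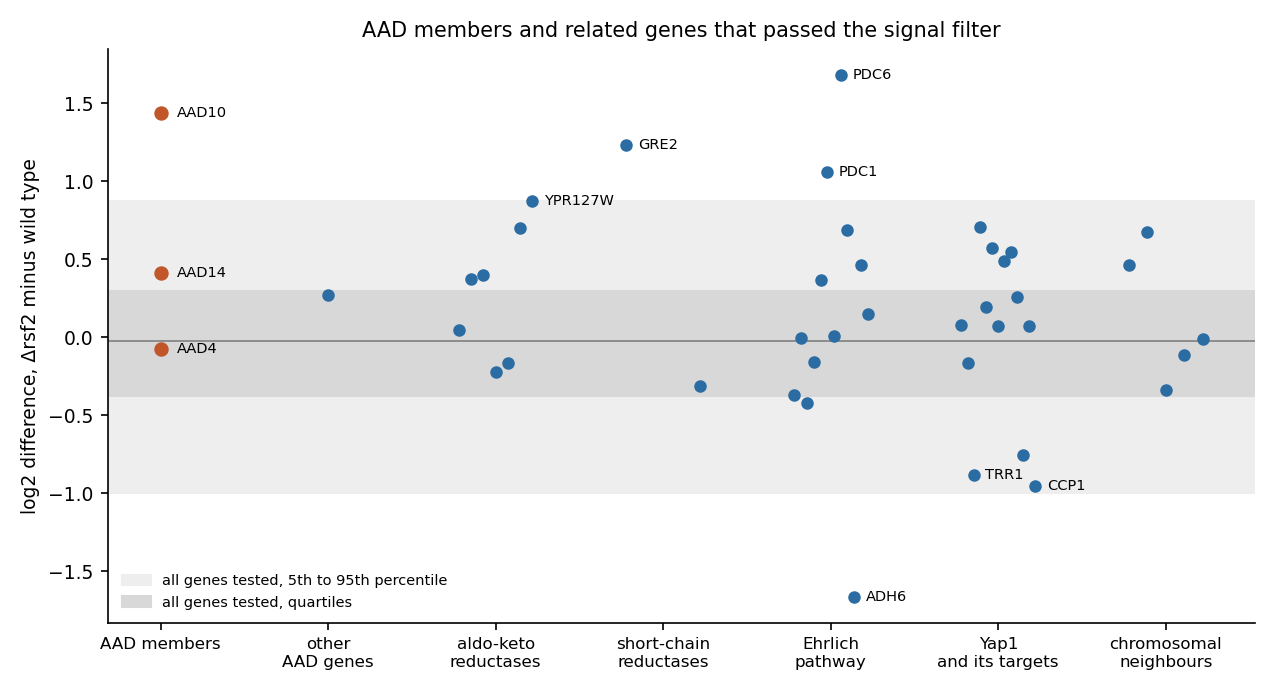
Log2 difference between Δrsf2 and wild type for the 3 AAD genes tested (orange) and for the genes of 6 related lists that passed the signal filter (blue), with the quartiles and the 5th to 95th percentile of all 4242 genes as grey bands. Most list genes lay within the outer band, and AAD10, PDC6, GRE2, PDC1 and ADH6 lay outside it.

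The 3 genes on each side of the AAD genes in the gene order were read for a regional difference. AAD4, AAD10 and AAD14 each lie beside a gene of the THI5 family (THI13, THI11 and THI12), which makes a thiamine precursor. Of 22 neighbours 12 had a single-gene probe set, and 5 of these had enough signal to pass the filter. SOR1, SOR2, HXT15, HXT16, SNZ2, SNO2 and the THI genes are read by probe sets of several genes, and YDL242W had no probe set listed. Among the 5 that passed, 2 were higher and 3 lower by value, and the median log2 difference was -0.01. That median was 0.30 with no signal filter. With 1 array left out it ran from -0.25 (without wild-type replicate 1) to 0.50 (without Δrsf2 replicate 1). The higher ones, ADH7 and YCR108C (0.68, overlapping groups), lie near AAD3, as does RDS1 (0.14, below the filter). The lower ones lie near AAD10 and AAD14. Next to AAD10, DAL5, an allantoate transporter, was at -0.34 ± 0.68 (SE), and its groups overlapped, as did those of PGU1, a pectin-degrading enzyme, and YJR154W, both below the filter. By value PGU1 was higher, at 0.57, with 3 arrays at or under the floor. YJR154W, directly beside AAD10, was higher at 0.97, and read 33.5, 32.8 and 79.3 on the wild-type arrays and 101 and 74.7 on the Δrsf2 arrays. Next to AAD14, RPD3, a histone deacetylase, was at -0.12 ± 0.62 (SE). PAU3, a seripauperin gene near AAD3 that was below the filter, averaged 70.2 ± 15.1 (SD, n = 3) on the wild-type arrays and 243 ± 76.0 (SD, n = 2) on the Δrsf2 arrays without overlap, 3.42-fold higher by geometric mean. Its probe set carries the mark for a gene family, and the seripauperin genes are close copies.

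Genes with the most similar pattern were found by the root mean square distance between centred log2 signals over the 5 arrays, among 4061 genes with plain probe sets. Nearest to AAD10 were CSH1, a subunit for sphingolipid synthesis, at a distance of 0.12, and PIG2, a putative targeting subunit for the Glc7 phosphatase, at 0.13, against a median of 0.95 over all candidates. CSH1 read 117, 101 and 161 on the wild-type arrays, and 201 and 444 on the Δrsf2 arrays. Nearest to AAD14 were EAF6, a subunit of a histone acetyltransferase, at 0.05 and YJR012C at 0.06, against a median of 0.53. Nearest to AAD4 were RPC17, a subunit of RNA polymerase III, at 0.11 and FPR4, a nuclear proline isomerase, at 0.11, against a median of 0.73. FPR4 read 269.6, 425 and 421 on the wild-type arrays, and 572 and 194 on the Δrsf2 arrays, with the same order of the mutant arrays around the wild type as AAD4. Nearest to the mean profile of the 3 AAD genes were VPS33, PEX32, ISF1, MLO127 and ROD1, at 0.06 to 0.11, against a median of 0.59. The root mean square of each profile around its own mean was 0.84 for AAD10, 0.28 for AAD14, 0.56 for AAD4 and 0.35 for the mean profile. A smaller distance from a flatter profile is therefore not a closer likeness. Of the 11 nearest genes named here 2 were again among the nearest with quantile normalisation, and 4 to 11 under the other 8 settings that were compared.

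The differences of the AAD genes were recomputed under 20 alternative settings. AAD10 was higher in all 20, from 0.27 to 1.99 on the log2 scale, and the lowest value came from the signals as deposited, in which Δrsf2 replicate 1 is on a different scale and the median of all genes was -1.19. AAD10 was at 0.88 without Δrsf2 replicate 2. AAD14 was at 0.24 without wild-type replicate 1. It was higher in 19 of 20, with -0.75 in the signals as deposited. AAD4 was above 0 in 4 settings and below 0 in 16, and it ran from -1.24 to 1.02. It was at -0.93 without Δrsf2 replicate 1 and at 0.77 without Δrsf2 replicate 2. The members were chosen with these differences known. For AAD10 and AAD14 the groups do not overlap, so leaving out, weighting or blocking arrays, or comparing within a spike-in set, could not turn their sign. The settings for the floor, the signal filter, the choice of probe set and the limma trend left both unchanged, at 1.44 and 0.41. The number of settings on 1 side of 0 is therefore no measure of certainty for these genes.

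**Figure D5:**
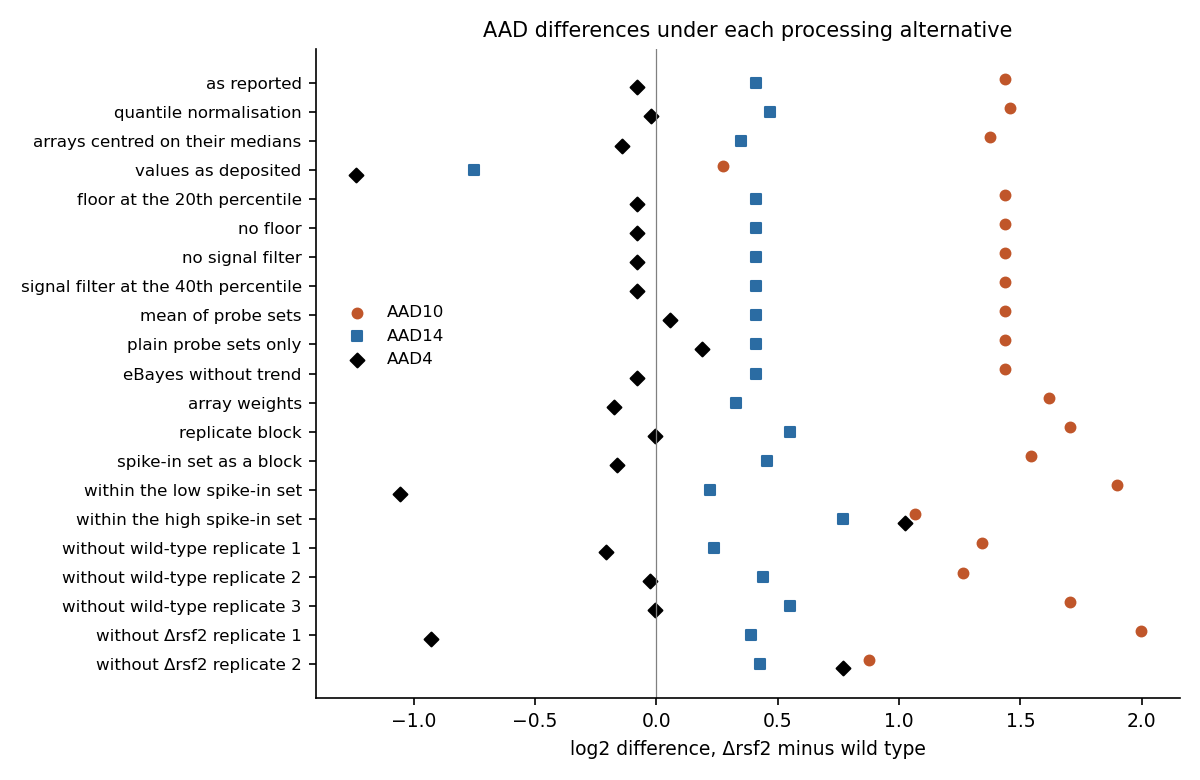
Log2 difference between Δrsf2 and wild type of AAD10, AAD14 and AAD4 as reported and under each of 20 processing alternatives. AAD10 stayed above 0 in each, AAD14 was below 0 only in the signals as deposited, and AAD4 changed side with the mutant array that was left out.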

How the data were processed

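The authors deposited a linear signal intensity for each probe set. Per the submitters' processing notes it came from MAS5, whose version and settings are not stated. Of 9335 probe sets 6504 had 1 gene in the platform annotation, all matched to the gene table of assembly R64, which served for names and neighbours only. Arrays were rescaled to a 2% trimmed mean of 500. A floor at the 10th percentile (28.1) was applied and log2 taken. The brightest probe set of a gene was used, and genes with a mean under the 25th percentile (129) were left out, which left 4242 of 5656. Groups came from the titles. All 5 arrays were fitted with limma 3.58.1 in R 4.3.3 (lmFit, eBayes with trend, group only), with Benjamini-Hochberg adjustment and a threshold of 0.05. The fit was also run on simulated data with independent noise and no spike-in sets. That run is no check of the fit on these arrays. SE values are limma's. Lists and members were chosen with earlier results of these data known. Named genes were the AAD genes, up to 3 of smallest p in each list, neighbours 2-fold apart without overlap and the nearest profiles, and other names were added after their values were seen. No sequences were used here.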

Additional observations from a re-analysis of the deposited data

How the results depend on the processing

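Over 20 alternatives, some of which left AAD10 and AAD14 unchanged, AAD10 moved by more than its replicate SD only in the values as deposited (0.27). AAD14 moved there (-0.75) and within the high spike-in set (0.77). AAD4 moved in the values as deposited (-1.24), within the high (1.02) and low (-1.05) sets and without single mutant arrays. Leaving out 1 array gave 0.88 to 1.99 for AAD10, 0.24 to 0.55 for AAD14 and -0.93 to 0.77 for AAD4. The AAD3 and AAD15 difference turned to -0.047 in the values as deposited. There 1 array keeps a different scale, and the median of all genes was -1.19. The cause of the other moves was not tested.

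The count of genes at least 2-fold higher without overlap, 75 as reported, was 183 without a signal filter, 36 with a filter at the 40th percentile, 0 in the values as deposited and 349 within the low set. The count lower, 116 as reported, was 1003 in the values as deposited and 503 within the low set. Without 1 array the counts ran from 81 to 460 higher and from 121 to 492 lower. Dropping wild-type replicate 3 gave 208 higher and dropping wild-type replicate 1 gave 298 lower. Dropping the first Δrsf2 array gave 460 higher and 383 lower, and dropping the second gave 340 and 492. Of these genes 60.7% were lower as reported, 71.9% with quantile normalisation (64 higher, 164 lower) and 71.6% with median centring (61 and 154).

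Limma called 0 genes as reported, 0 to 67 without 1 array, with 41 without Δrsf2 replicate 1 and 67 without Δrsf2 replicate 2, and 367 within the low set. There 10 list genes passed: YPR1, GRE3, YJR096W, YPR127W, GRE2, PDC6, SFA1 and AHP1 were higher, and ADH6 and OYE3 lower. In that fit the lone mutant array is assumed to vary like the wild-type arrays. The lists were chosen with earlier results known, and the share of list genes that passed was not compared with the share of all genes. The count of list genes therefore does not show whether any list stood out from the other genes. The high set allows no fit, since it holds 1 array of each group. The replicate block called 2 genes, HPF1 and SHH3, no AAD gene among them. The labels give same-numbered arrays no link beyond the number, but the 2 arrays numbered 1 form the high spike-in set. The correlation of deviations was 0.27 for the arrays numbered 1 and -0.09 for those numbered 2. With 2 mutant arrays the deviation of each mirrors the other, so these are not separate checks. Under the block AAD10 was at 1.70, AAD14 at 0.55 and AAD4 near 0. With 5 arrays and no detection calls, signals near the floor such as those of AAD6 and the AAD3 and AAD15 probe set are the least certain.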
